A study of Mus musculus with 4 samples.

Results

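The heat shock and immediate early genes comprised 36 listed genes, 11 that encode heat shock proteins and 25 that belong to or accompany the immediate early response. They were taken by name, but with earlier results of these data known. They were matched by gene ID among the 31950 gene IDs that both gene expression libraries listed, where all 36 were found under the same symbol. Single cells came from the lamina propria of the proximal small intestine of 12-week-old WT mice and of mice homozygous for A20ZF7, a knock-in that mutates zinc finger 7 of A20, the motif with which A20 binds linear (M1) ubiquitin. A20, encoded by Tnfaip3, is a ubiquitin-editing protein that restrains NF-kB signalling, and the mutation was carried by every cell of the body rather than by 1 cell type. For each genotype, cells of 2 mice carrying separate hashtag antibodies were pooled into 1 droplet library after enzymatic digestion at 37 °C, dissociation, density separation and enrichment of T cells and innate lymphoid cells (ILCs) by negative selection. The question these genes address is how far such levels reflect the cells' activation and how far the handling of the tissue.

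Heat shock proteins are chaperones that bind unfolded proteins. Their stress-inducible members are transcribed by heat shock factor HSF1, which binds arrays of inverted GAA units, whereas the constitutive members are made in most cells at all times. Immediate early genes are switched on within minutes without new protein synthesis, through factors such as SRF and CREB that are already in the cell. Antigen receptor or cytokine signals induce them, and so does warm enzymatic digestion of a tissue, so that 1 gene can report on activation in the animal or on what happened after the tissue was removed.

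The 250 bases upstream of the start site are shown for the inducible HSP70 pair and for Hspe1 and Hsph1, heat shock genes with a motif in the window whose level in T cells was lower in A20ZF7. Sequences are from RefSeq (GRCm38.p6), written 5′ to 3′ on the strand of the gene, and capitals mark matches to inverted GAA units, GAANNTTC or TTCNNGAA, where N is any base.
Hspa1a (chr17:34972157-34972406, minus strand): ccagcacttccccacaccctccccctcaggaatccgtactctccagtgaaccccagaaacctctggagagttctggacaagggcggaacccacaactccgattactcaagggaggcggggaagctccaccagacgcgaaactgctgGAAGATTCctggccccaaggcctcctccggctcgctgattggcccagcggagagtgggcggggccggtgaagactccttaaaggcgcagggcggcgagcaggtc
Hspa1b (chr17:34959239-34959488, minus strand): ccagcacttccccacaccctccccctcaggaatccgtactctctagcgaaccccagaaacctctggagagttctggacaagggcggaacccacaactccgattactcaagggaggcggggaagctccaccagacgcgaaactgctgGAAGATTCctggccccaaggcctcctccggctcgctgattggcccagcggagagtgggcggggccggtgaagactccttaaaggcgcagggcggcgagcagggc
Hspe1 (chr1:55087898-55088147, plus strand): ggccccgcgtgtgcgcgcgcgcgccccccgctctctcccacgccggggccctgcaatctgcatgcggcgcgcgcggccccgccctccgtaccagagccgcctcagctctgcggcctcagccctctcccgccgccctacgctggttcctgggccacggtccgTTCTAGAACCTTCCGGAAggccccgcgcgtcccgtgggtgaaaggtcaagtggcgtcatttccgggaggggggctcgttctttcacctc
Hsph1 (chr5:149636337-149636586, minus strand): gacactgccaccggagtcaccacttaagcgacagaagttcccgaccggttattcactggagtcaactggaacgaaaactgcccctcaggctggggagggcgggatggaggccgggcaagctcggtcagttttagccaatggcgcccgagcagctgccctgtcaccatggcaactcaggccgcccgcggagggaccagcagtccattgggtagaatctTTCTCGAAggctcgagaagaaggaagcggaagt

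The windows upstream of Hspa1a and Hspa1b, which encode near-identical inducible HSP70 proteins, were the same at 247 of 250 positions (98.8%) and held GAAGATTC at the same distance, 104 to 97 bases before the start. Hspd1 and Hspe1 encode the mitochondrial chaperonin and its cochaperonin and lie head to head, so that their windows overlap. They share 1 GAANNTTC match (chr1:55088064-55088071) and the TTCNNGAA matches on either side of it (chr1:55088059-55088066 and chr1:55088069-55088076). The strand of the gene was searched, which covers both strands, since both arrangements read the same on either strand. Windows were found for 29 of the 36 genes, 8 heat shock and 21 immediate early, and not for Cd69, Egr1, Hsp90aa1, Hsp90ab1, Hspa8, Ier2 and Rgs1. Either arrangement was present for 7 of the 8 heat shock genes (Dnaja1, Hspa1a, Hspa1b, Hspb1, Hspd1, Hspe1 and Hsph1) and for Jun, and in 12.8% of 32851 windows of the same length. GAANNTTC alone was in 6.69% of those windows and TTCNNGAA alone in 7.17%. The window of Dnajb1 held neither. The CRE motif TGACGTCA (1.55% of windows) was upstream of Btg2, Dusp1 and Ppp1r15a, the AP-1 motif TGANTCA (6.75%) upstream of Zfp36l1, and the CArG box of SRF (1.47%) upstream of Zfp36. A match describes letters in a window and not binding.

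The WT library gave 19661 cells of at least 500 UMIs (median 881 UMIs) and the A20ZF7 library 36874 (median 952 UMIs), and the 36 genes held 1.90% and 1.68% of their UMIs. Marker genes placed cells in classes, of which 14 had at least 40 cells in both libraries, including 2210 and 6776 T cells, 2277 and 1771 ILCs and 5797 and 9859 fibroblasts. The leading genes of the classes mostly fitted their names. In A20ZF7 alone, ILC1 or NK cells were also led by Il13, Gata3 and Il4, and CD8 T cells by Hbb-bs. T cells without a subset were in A20ZF7 alone also led by Il17a and Ccl20, which led A20ZF7 Th17 cells as well. Ier3 was among the 10 leading genes of endothelium in both libraries. Between the libraries 1023 cell barcodes were shared (5.20% of WT and 2.77% of A20ZF7 cells). No class was given to 33.2% of WT and 45.1% of A20ZF7 cells. Levels are UMIs of a gene per 1000000 UMIs of a class (CPM), and intervals are exact 95% Poisson intervals, or exact conditional ones for a ratio of levels. Because each genotype was 1 library, no test was run, the intervals cover counting error only, and the genotype cannot be told apart from the library and its handling.

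In both libraries, heat shock genes together were lowest in plasma cells, fibroblasts and epithelium. Their summed level was 8099 CPM in endothelium of WT and 5449.7 CPM in that of A20ZF7, of which Hspb1 made up 2532 and 787 CPM. Without Hspb1 endothelium was at 5567 and 4663 CPM, below T cells at 7202 and 5058 CPM, and WT macrophages and monocytes were at 6714 CPM. In ILC3, the ILCs that make IL-22, the full heat shock sum was 7209 CPM in WT and 5393 CPM in A20ZF7. Plasma cells lay at the other end, with 2348 CPM in WT and 2592 CPM in A20ZF7. Immediate early genes ranged from 28995 CPM in ILC3 and 27446 CPM in endothelium of WT down to 5079.5 CPM in WT plasma cells. Among lymphocytes their order differed from that of heat shock genes. T cells of WT mice 1 and 2 were at 7319 and 7017 CPM for heat shock genes, above ILCs at 6490 and 6700 CPM. For immediate early genes these T cells were at 17317 and 17172 CPM, below ILCs at 23288 and 23214 CPM. Over the 26 combinations of class and library with at least 100 cells, the logarithms of the heat shock and immediate early sums had a Pearson correlation of 0.928, given as a description since classes of 1 library share its depth and handling.

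**Figure D1:**
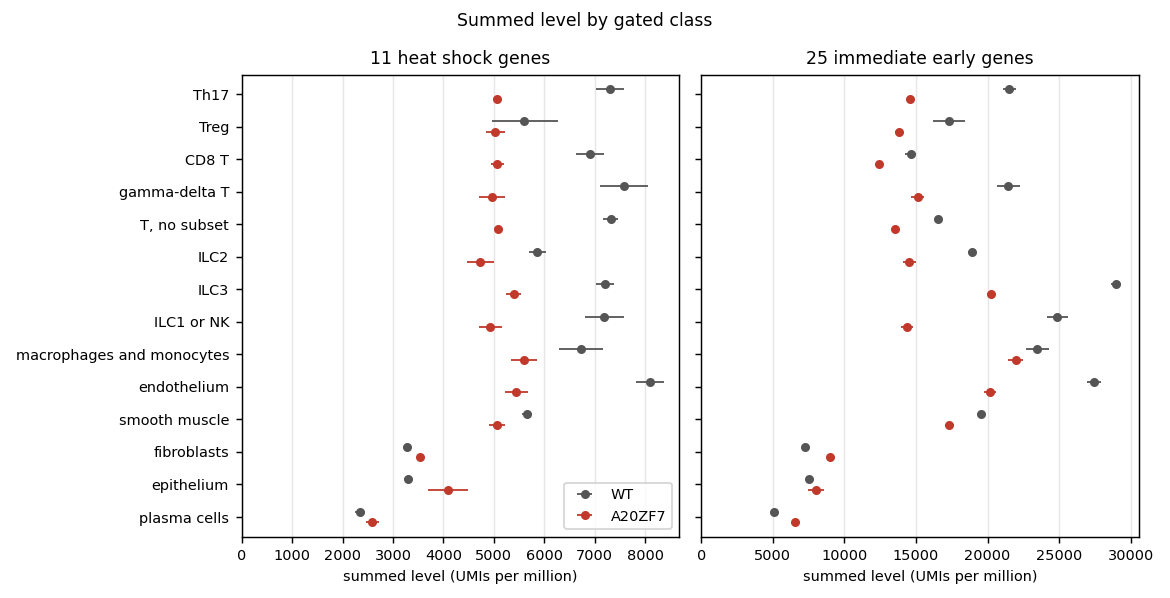
Summed level of the 11 heat shock genes (left) and the 25 immediate early genes (right) in CPM, for each gated class in WT (grey) and A20ZF7 (red). Points are 1 library each and bars 95% Poisson intervals. In 11 of 14 classes the red point is left of the grey one in both panels, and in fibroblasts, epithelium and plasma cells it is right of it.

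In T cells, both groups of genes were lower in A20ZF7 than in WT. The heat shock sum was 7219.9 CPM (7106 to 7336) in WT and 5065 CPM (5016 to 5115) in A20ZF7, a ratio of 0.702 (0.689 to 0.715). The immediate early sum was 17405 CPM in WT and 13781 CPM in A20ZF7, a ratio of 0.792 (0.782 to 0.801). A ratio below 1 was found for all 11 heat shock genes and 23 of 25 immediate early genes, against 41.4% of the 10064 genes with at least 20 UMIs in the genotype where they were higher, whose median ratio was 1.05. The interval of the ratio lay wholly below 1 for 10 heat shock and 23 immediate early genes, against a background of 12.9% of all genes, and wholly above 1 for Ier3 alone (background 17.3%). Intervals narrow as UMIs rise, and the background includes genes with few UMIs, so these shares are not matched for UMIs. Of 15 listed housekeeping genes, the interval lay below 1 for 4 and above 1 for 7.

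Of the heat shock genes, Dnajb1, Hspa1a and Hspa1b had the lowest ratios. Hspa1a, an inducible HSP70 gene, was at 796 CPM in WT mouse 1, 681 CPM in WT mouse 2, 833 CPM in WT cells with no hashtag call and 236 CPM in A20ZF7. The A20ZF7 value was thus below all WT values, and the pooled ratio was 0.311 (0.290 to 0.332). Its twin Hspa1b was at 325, 255 and 354 CPM in the same WT cells and at 95.6 CPM in A20ZF7, a ratio of 0.315 (0.284 to 0.351). Reads of these near-identical genes may be split uncertainly, and their sum was 1061 CPM in WT and 331 CPM in A20ZF7, a ratio of 0.312 (0.295 to 0.330).

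Dnajb1, the inducible J-domain cochaperone that feeds clients to HSP70, was at 334 CPM in WT mouse 1, 357 CPM in WT mouse 2 and 403 CPM in WT cells without a call. In A20ZF7 it was at 103 CPM, below each of these, with a ratio of 0.292 (0.265 to 0.323). Hsph1, an HSP110 nucleotide exchange factor for HSP70, was at 247, 259 and 251 CPM in WT and 119 CPM in A20ZF7, a ratio of 0.473 (0.425 to 0.527). Hspb1, a small heat shock protein typical of muscle and endothelium, rested on 38 WT and 57 A20ZF7 UMIs, at 18.1 and 7.14 CPM. In these T cells smooth muscle markers summed to 126 CPM in WT and 59.9 CPM in A20ZF7, with 0 of 9 at 0. Endothelial markers went the other way, at 89.3 and 144 CPM, and the part of both lists was not tested. Hspa1a, Hspa1b, Dnajb1, Hsph1 and Hspb1 were the 5 of 36 genes at least 2-fold lower in A20ZF7, against 2.33% of all genes tested. Hsph1 lost the call from 1000 UMIs up and with order-of-magnitude cell thresholds, and Hspb1 lost it from 1000 UMIs up, with free RNA taken off, with a stricter gate and without WT mouse 1, while Atf3 passed 2-fold under some alternatives.

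The other heat shock genes had ratios from 0.665 to 0.974. Hsp90ab1, the constitutive cytosolic HSP90, was at 1577 CPM in WT and 1535 CPM in A20ZF7, and the interval of its ratio of 0.974 (0.937 to 1.01) held 1. WT cells without a hashtag call, at 1520.5 CPM, were below A20ZF7. Hspa8, the constitutive HSC70, was at 1465 and 1224 CPM, a ratio of 0.836 (0.802 to 0.870). Hsp90aa1, the inducible HSP90, stood at 819 and 583 CPM and Dnaja1, another HSP70 cochaperone, at 609.9 and 423 CPM, with ratios of 0.711 and 0.693. The mitochondrial pair Hspd1 and Hspe1 had ratios of 0.8095 and 0.665, with Hspe1 at 845 CPM in WT and 562 CPM in A20ZF7 and Hspd1 at 219 and 177 CPM.

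**Figure D2:**
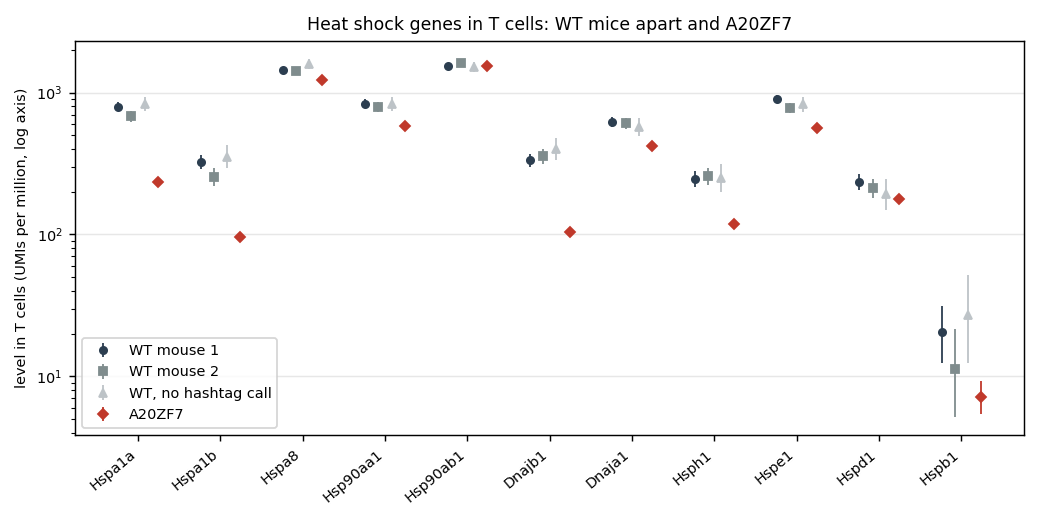
Level of each heat shock gene in T cells in CPM on a log axis, for WT mouse 1, WT mouse 2, WT cells without a hashtag call and A20ZF7 (red diamonds). Bars are 95% Poisson intervals. The red diamond is below both WT mice for all 11 genes, widely for Hspa1a, Hspa1b, Dnajb1 and Hsph1 and by little for Hsp90ab1.

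Among the immediate early genes, the AP-1 subunits were lower in T cells of A20ZF7. Fos was at 749.8 CPM in WT mouse 1, 755 CPM in WT mouse 2, 827 CPM in WT cells without a call and 499 CPM in A20ZF7, a ratio of 0.653 (0.616 to 0.692). The A20ZF7 value lay below all WT values. Its paralog Fosb had a ratio of 0.603 and Jun, the main partner of Fos, one of 0.703, from 1377 CPM in WT and 968 CPM in A20ZF7. Junb and Jund, which T cells express broadly, differed less, with ratios of 0.847 and 0.884. Atf3, a stress-induced repressor of the ATF family, had the lowest ratio of the 25, 0.501 (0.421 to 0.598), at 95.5 CPM in WT and 47.9 CPM in A20ZF7.

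Transcription factors of other families followed. Egr1, a zinc finger factor downstream of SRF, was at 116 and 83.9 CPM, a ratio of 0.724 (0.625 to 0.842). Klf6 had a ratio of 0.824, and Klf4, an inhibitor of proliferation, 1.06 (0.889 to 1.28), which held 1. The orphan nuclear receptors Nr4a1, Nr4a2 and Nr4a3, which antigen receptor signals induce, had ratios of 0.797, 0.648 and 0.826. Nr4a1 was at 459 CPM in WT mouse 1, 494 CPM in WT mouse 2 and 391 CPM in A20ZF7.

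Genes that shut signals or mRNAs down were lower as well. Dusp1 and Dusp2, phosphatases that inactivate MAP kinases, had ratios of 0.781 and 0.603. Zfp36 and Zfp36l1, which bind AU-rich elements and destabilise mRNA, had ratios of 0.648 and 0.743. The antiproliferative factors Btg1 and Btg2 had ratios of 0.893 and 0.583, and the stress genes Ppp1r15a, which relieves the block of translation initiation, and Gadd45b had ratios of 0.739 and 0.8996. Ier2 and Ier5, nuclear proteins of the early response, had ratios of 0.764 and 0.709. Ier3, which modulates survival, went the other way, from 7.13 CPM (15 UMIs) in WT to 19.4 CPM (155 UMIs) in A20ZF7, a ratio of 2.73 (1.60 to 4.99), and was the 1 gene at least 2-fold higher, against 7.22% of all genes. It passed the minimum of 20 UMIs through A20ZF7 alone, and the call was lost when cells were thinned to 500 UMIs and without WT mouse 2, so nothing is read from it. Of its WT UMIs, 12 were from mouse 1, 2 from mouse 2 and 1 from a cell without a call. Endothelial markers, of a class rich in Ier3, summed to 89.3 CPM in WT T cells, with 3 of 11 at 0, and 144 CPM in A20ZF7 T cells, with 0 at 0, and their part was not tested.

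Of the genes that mark activated or resident lymphocytes, Cd69, the receptor that retains lymphocytes in tissue, was at 559 CPM in WT mouse 1, 520.1 CPM in WT mouse 2 and 438 CPM in A20ZF7, a ratio of 0.799 (0.747 to 0.855). Rgs1, which dampens chemokine receptor signals, was at 2196 and 2125 CPM in the WT mice and 1737 CPM in A20ZF7, a ratio of 0.803 (0.777 to 0.831). Both A20ZF7 values were below both WT mice.

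**Figure D3:**
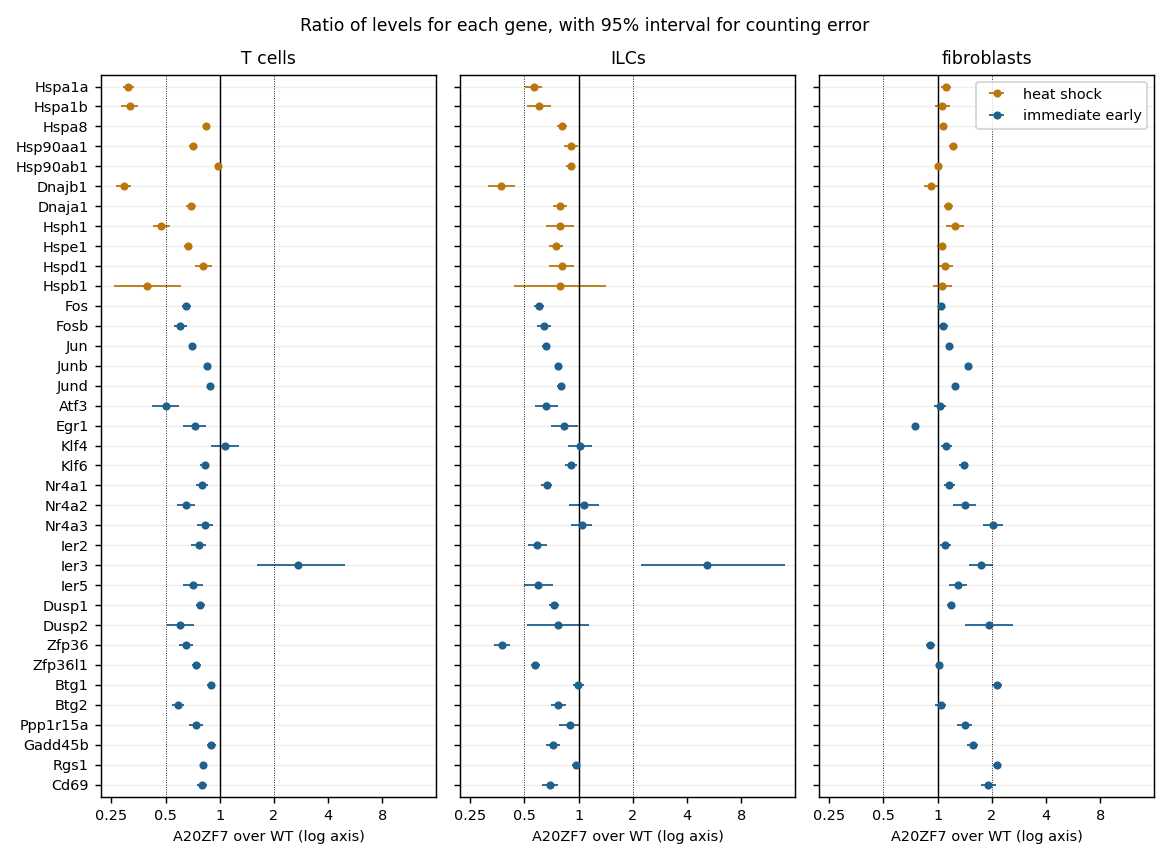
Ratio of A20ZF7 to WT levels on a log axis for each of the 36 genes in T cells, ILCs and fibroblasts, with exact 95% intervals for counting error. Dotted lines mark 2-fold differences. Most points are left of 1 in T cells and ILCs, with Ier3 far right, and most are at or right of 1 in fibroblasts.

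Hashtags split WT cells into 7000 of mouse 1 and 3693 of mouse 2, while 8967 carried no call. In T cells, the ratio of WT mouse 2 to mouse 1 was 0.959 (0.926 to 0.993) for the heat shock sum, 7017 against 7319 CPM, and 0.992 (0.969 to 1.01) for the immediate early sum. A20ZF7 was below both mice for all 11 heat shock genes and for 23 of 25 immediate early genes, against 28.7% of all genes, and above both for Klf4 and Ier3 (41.7% of all genes). In ILCs it was below both mice for 11 heat shock and 20 immediate early genes (33.4% of all genes) and above both for 2 (38.1%). The WT mice shared every step after labelling, and A20ZF7 cells were not split by mouse here.

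In ILCs, the heat shock sum was 6489.9 CPM in WT mouse 1, 6699.8 CPM in WT mouse 2 and 5179 CPM in A20ZF7, with a pooled ratio of 0.781 (0.759 to 0.803). The immediate early sum was 23288 and 23214 CPM in the WT mice and 17971 CPM in A20ZF7, with a pooled ratio of 0.740. The inducible pair Hspa1a and Hspa1b was at 835 CPM in WT and 482 CPM in A20ZF7, a ratio of 0.577 (0.527 to 0.630). Dnajb1 at 0.372 (0.312 to 0.441) and Zfp36 at 0.375 (0.338 to 0.416) were the 2 genes at least 2-fold lower (background 4.11%), and Ier3, on 7 and 29 UMIs, the 1 gene at least 2-fold higher (5.11%). With 7 WT UMIs, Ier3 passed the minimum of 20 UMIs through A20ZF7 alone, so nothing is read from that call. The interval of the ratio was below 1 for 10 heat shock and 17 immediate early genes (12.7% of all genes) and above 1 for Ier3 (15.3%). Of the 15 housekeeping genes, it was below 1 for 5 and above 1 for 3. Fos was at 1765 CPM in WT and 1064 CPM in A20ZF7, a ratio of 0.603, whereas Btg1 at 0.997, Rgs1 at 0.962 and Nr4a3 at 1.04 had intervals that held 1. In ILCs the T cell markers summed to 959.99 CPM in WT and 1741 CPM in A20ZF7, with 4 of 12 at 0 in each, and their part in these values was not tested.

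Hspa1a and Dnajb1 were at least 2-fold lower in every lymphocyte class except Tregs, where Hspa1a alone was. For Tregs, CD8 T cells, gamma-delta T cells, T cells without a subset and ILC2 no share over all genes was computed. In Th17 cells, helper T cells that make IL-17, the heat shock ratio was 0.694 (0.665 to 0.724) and the immediate early ratio 0.678 (0.661 to 0.694). Of 33 genes with enough UMIs, 7 were at least 2-fold lower (Hspa1a, Hspa1b, Dnajb1, Fosb, Atf3, Egr1 and Zfp36, background 1.7%) and 0 at least 2-fold higher (13.7%). Th17 cells held 360990 UMIs in WT and 2604616 in A20ZF7. The minimum of 20 UMIs thus fell at a higher CPM for genes lower in A20ZF7 than for genes higher in it. The 2 background shares are therefore not alike, and the median ratio over all genes was 1.19. In ILC1 or NK cells, cytotoxic and interferon-producing lymphocytes, 12 of 34 were at least 2-fold lower (5.27%) and 0 higher (10.5%), and the immediate early ratio of 0.578 (0.555 to 0.602) was the lowest of the 14 classes. In A20ZF7 alone that class was also led by Il13, Gata3 and Il4, genes of type 2 cells. In ILC3, 6 of 34 were at least 2-fold lower (Hspa1a, Dnajb1, Ier2, Ier5, Zfp36 and Zfp36l1, 4.66%) and 0 higher (6.21%). Tregs, the regulatory T cells, of which WT had 46, gave a heat shock ratio of 0.899 (0.796 to 1.02), and CD8 T cells and gamma-delta T cells gave 0.734 and 0.655. The median ratio of the immediate early genes with enough UMIs was 0.851 in CD8 T cells (25 genes) and 0.810 in Tregs (21 genes). It was 0.638 in gamma-delta T cells (22 genes) and 0.608 in Th17 cells (23 genes). Tregs held 51304 UMIs in WT and 586315 in A20ZF7. Genes lower in A20ZF7 thus needed a higher CPM to be counted there than genes higher in it, so nothing is read from the Treg median. Rgs1 was 2438 CPM in WT and 999 CPM in A20ZF7 ILC2, a ratio of 0.410 (0.358 to 0.467), but 1769.7 and 2455 CPM in ILC3, a ratio of 1.39 (1.30 to 1.48). ILC2, the ILCs that make IL-13, also had Egr1, Nr4a1 and Nr4a3 higher in A20ZF7, with ratios of 1.67, 1.27 and 1.84, while Fos was lower at 0.493.

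**Figure D4:**
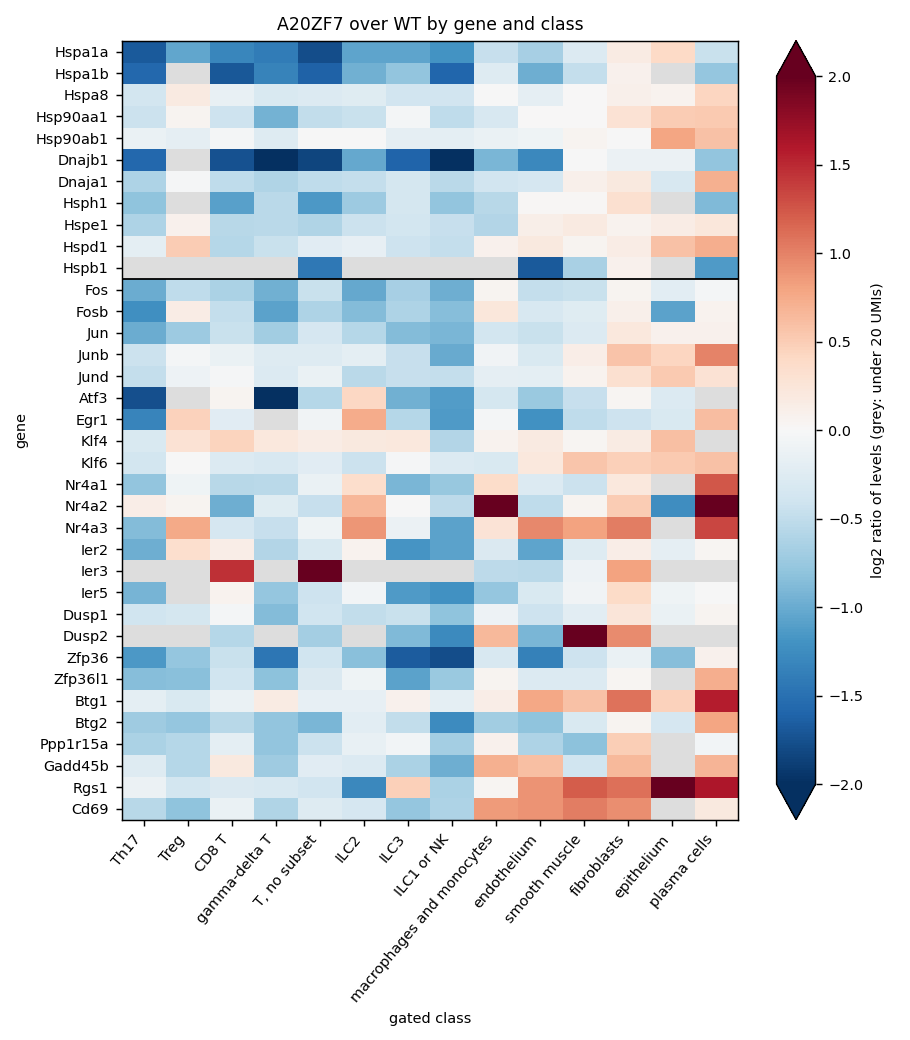
Log2 ratio of A20ZF7 to WT levels for each of the 36 genes (rows) in 14 gated classes (columns), from blue for lower to red for higher in A20ZF7, with grey where a gene had under 20 UMIs in the genotype with the higher level. Hspa1a is at least 2-fold lower in each lymphocyte class, Dnajb1 in each but Tregs, and Hspa1b in each but Tregs, ILC2 and ILC3. Rgs1, Cd69 and Btg1 are red in non-lymphoid classes.

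Endothelium and smooth muscle also had sums below 1. The heat shock ratio of endothelium was 0.673 (0.638 to 0.710), or 0.838 (0.789 to 0.8896) without Hspb1, and its immediate early ratio 0.734 (0.714 to 0.755). Hspb1 was at 2532 CPM in WT and 787 CPM in A20ZF7, a ratio of 0.311 (0.274 to 0.352), and Dnajb1, Egr1, Ier2 and Zfp36 were the other 4 genes at least 2-fold lower, against 5.41% of all genes, with 0 higher (7.96%). Smooth muscle had ratios of 0.8945 (0.862 to 0.928) and 0.887 (0.869 to 0.904). There 4 of 11 heat shock genes were below 1, against 61.5% of all genes. Without Hspb1 (1561 CPM in WT and 997 CPM in A20ZF7) the heat shock ratio was 0.992 (0.951 to 1.03). These values depended on which WT cells were counted, as 1225 had no hashtag call and 449 had one. Against those with a call, the ratios of the full sums were 0.878 (0.840 to 0.919) and 0.947 (0.924 to 0.970). All 11 heat shock genes were then below 1, with no share over all genes computed. The heat shock sum was 5728 and 5842 CPM in the WT mice and 5061 CPM in A20ZF7. In the same class Dusp2, Rgs1 and Cd69 were at least 2-fold higher (6.37%) and 0 genes at least 2-fold lower (7.24%). Dusp2 had 3 UMIs in WT mouse 1, 6 in mouse 2 and 3 without a call. It passed the minimum of 20 UMIs through A20ZF7 alone, so nothing is read from it. Rgs1 was at 519 and 745 CPM in the WT mice and 728 CPM in A20ZF7, between them. Cd69 was at 134 and 140 CPM in the mice and 167 CPM in A20ZF7. WT cells without a call were at 173 CPM for Rgs1 and 54.8 CPM for Cd69. In macrophages and monocytes the ratios were 0.832 (0.768 to 0.901) and 0.936 (0.898 to 0.976).

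Fibroblasts, plasma cells and epithelium had ratios above 1. In fibroblasts the heat shock sum was 3287 CPM in WT and 3528 CPM in A20ZF7, a ratio of 1.07 (1.06 to 1.09), and the immediate early sum 7262 and 9015 CPM, a ratio of 1.24 (1.23 to 1.26). In fibroblasts with under 2% mitochondrial UMIs the immediate early ratio was 0.918 (0.890 to 0.947), against 1.25, 1.37 and 1.39 in those with more. From 1500 UMIs up it was 1.03 (1.02 to 1.05), against 1.23 to 1.54 in fibroblasts with fewer UMIs. Nr4a3 at 2.03, Btg1 at 2.13 and Rgs1 at 2.14 were at least 2-fold higher (background 7.9%) and 0 genes at least 2-fold lower (3.72%). These 3 calls rest on WT fibroblasts without a hashtag call, at 36.2, 130 and 141 CPM. WT mice 1 and 2 were at 64.8 and 81.5 CPM for Nr4a3, 279 and 359 CPM for Btg1 and 419 and 607 CPM for Rgs1. A20ZF7, at 101, 429 and 595 CPM, was not 2-fold above either mouse. The interval was above 1 for 6 heat shock and 20 immediate early genes (21.5%) and below 1 for Egr1 at 0.752 and Zfp36 at 0.911 (26.1%). Of the 15 housekeeping genes, it was above 1 for 10 and below 1 for 0.

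The direction in fibroblasts depended on which WT cells were counted. WT fibroblasts with a hashtag call numbered 2046 (median 1194 UMIs), and against them the heat shock ratio was 0.968 (0.947 to 0.98995) and the immediate early ratio 1.05 (1.04 to 1.07). The 3751 without a call (median 959 UMIs) were at 3040.4 CPM and 6366 CPM, below the 3644 and 8558 CPM of those with one. WT mouse 1 was at 3531 CPM and WT mouse 2 at 3906 CPM for heat shock genes, against 3528 CPM in A20ZF7. For immediate early genes they were at 8250.4 and 9272.5 CPM, and A20ZF7 at 9015 CPM lay between them. A20ZF7 was below both mice for 4 of the 11 heat shock and 7 of the 25 immediate early genes (37.3% of all genes) and above both for 1 and 11 (31.2%). In T cells, the same restriction left ratios of 0.705 and 0.799.

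T cell genes were also more abundant in A20ZF7 fibroblasts. The 12 T cell markers summed to 297 CPM in WT fibroblasts and 1011 CPM in A20ZF7 ones, with none at 0, beside the higher Rgs1 (278 and 595 CPM), Cd69 (83.1 and 159 CPM) and Btg1 (201 and 429 CPM), and their part in these values was not tested. These WT levels pool cells with and without a hashtag call. Cd69 was at 127 and 154 CPM in WT mice 1 and 2 and 46.8 CPM in WT fibroblasts without a call. In plasma cells the ratios were 1.10 (1.03 to 1.18) and 1.29 (1.23 to 1.35). Nr4a1, Nr4a2, Nr4a3, Btg1 and Rgs1 were at least 2-fold higher, against 30.6% of all genes, and Hspb1 at least 2-fold lower (4.15%). Nr4a2, at 8.97 CPM in WT plasma cells, passed the minimum number of UMIs through A20ZF7 alone, so nothing is read from that call. The median ratio over all genes in plasma cells was 1.59, and their median depth was 3385 UMIs in WT and 1731 UMIs in A20ZF7. In epithelium, with 44 A20ZF7 cells, the ratios were 1.24 (1.12 to 1.37) and 1.07 (0.995 to 1.15).

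T cells and fibroblasts of 1 library shared genotype and handling and were set against each other. In WT, the heat shock sum was 2.20 times as high in T cells as in fibroblasts (2.15 to 2.24), and in A20ZF7 1.44 times (1.42 to 1.46). For the immediate early sum these were 2.397 times (2.36 to 2.43) and 1.53 times (1.52 to 1.54). In WT, 9 of 11 heat shock and 15 of 25 immediate early genes were at least 2-fold higher in T cells (13.5% of all genes), while Hspb1 and 3 immediate early genes were at least 2-fold lower (33.4%). These WT contrasts include the fibroblasts without a hashtag call, which had lower sums. With a call, WT T cells and fibroblasts were at 7184 and 3644 CPM for heat shock and 17252 and 8558 CPM for immediate early genes. In WT mouse 2, Hspa8, Hsp90aa1, Dnaja1 and Hspe1 were less than 2-fold higher in T cells, while Hspa1a, Hspa1b, Dnajb1, Hsph1 and Hspd1 stayed past it. In A20ZF7, 0 heat shock and 7 immediate early genes were at least 2-fold higher (10.8%), and 1 and 4 at least 2-fold lower (27.7%). Hspa1a was 3.35 times as high in T cells as in fibroblasts of WT (3.12 to 3.59) and 0.929 times in A20ZF7 (0.875 to 0.985), and Dnajb1 3.48 and 1.10 times. Egr1 was lower in T cells of both, at 0.232 and 0.223 times the level of fibroblasts.

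Per cell, fewer A20ZF7 than WT T cells held many heat shock UMIs. Each cell was thinned to 500 UMIs, the minimum of all cells kept, so that depth was equal. The median T cell then held 3 heat shock UMIs in WT and 2 in A20ZF7, and the 90th percentile was 7 and 5. Cells with at least 5 such UMIs made up 29.2% of WT and 12.6% of A20ZF7 T cells, and cells with none 9.19% and 12.1%. For immediate early genes the median was 8 in WT and 7 in A20ZF7, and the 90th percentile 16 and 12.

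**Figure D5:**
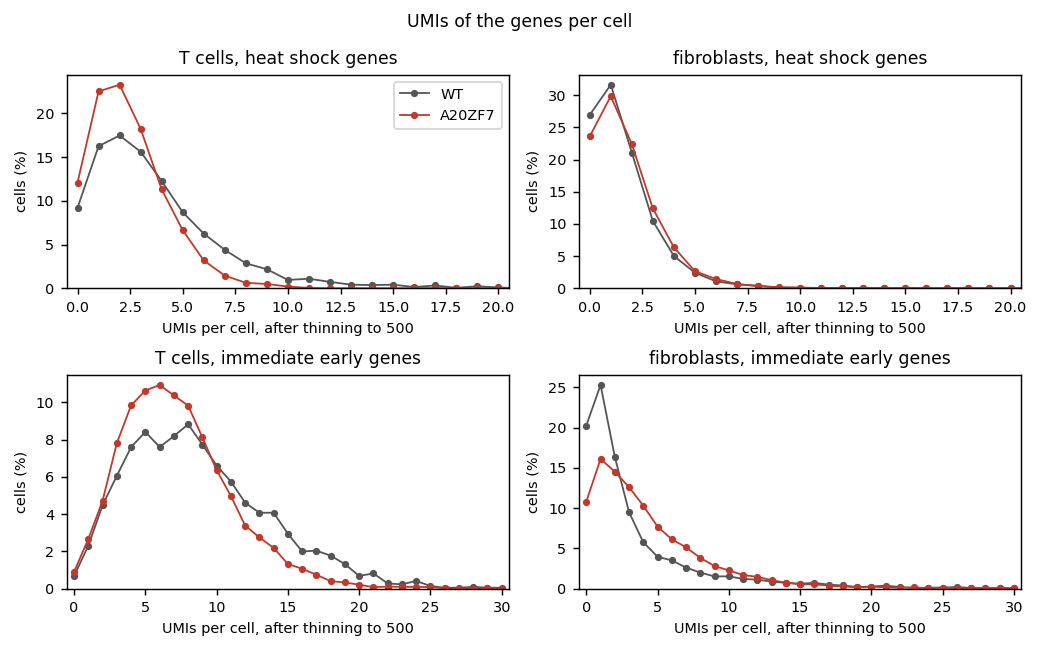
Share of cells (%) by the number of UMIs of the 11 heat shock genes (top) or 25 immediate early genes (bottom) per cell thinned to 500 UMIs, in T cells (left) and fibroblasts (right), for WT (grey) and A20ZF7 (red). In T cells the grey lines extend further right, and 29.2% of WT against 12.6% of A20ZF7 cells have at least 5 heat shock UMIs.

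The share of T cells with a UMI of Hspa1a after thinning was 23.3% (exact binomial interval 21.6 to 25.2) in WT and 9.93% (9.23 to 10.7) in A20ZF7, and 32.1% and 18.8% before it. For Dnajb1 it was 13.2% and 4.87% after thinning, and for Fos 26.3% and 20.6%. Cd69 was detected in 22.5% of WT and 20.1% of A20ZF7 T cells. Fibroblasts and epithelial cells, which should lack it, gave 3.05% and 1.60% in WT and 6.52% and 6.82% in A20ZF7. Rgs1 was in 54.6% and 54.5% of T cells against 8.57% and 20.2% of fibroblasts. Before thinning, median depth was 768 and 1002 UMIs in T cells and 1033 and 959 UMIs in fibroblasts, and Cd69 was in 34.9% and 37.4% of T cells and 7.12% and 14.2% of fibroblasts.

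Fibroblasts with a Fos UMI held more of the other immediate early genes per cell. WT fibroblasts with a Fos UMI held a mean of 7.55 UMIs of the other immediate early genes per thinned cell, and those without one 2.20, and in A20ZF7 the means were 7.02 and 3.14. Egr1 was at 0.871 and 0.121 UMIs in the same WT cells. Cells with a Fos UMI numbered 923 of WT against 4874 without, and 2089 of A20ZF7 against 7770 without. In WT T cells the contrast was 10.1 against 7.74 UMIs, and in A20ZF7 T cells 8.17 against 6.63. Heat shock UMIs were 2.47 and 1.39 in WT fibroblasts with and without Fos, and the 15 housekeeping genes 6.47 and 5.92.

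Depth and mitochondrial content did not turn the direction in T cells. In bins of 500 to 700, 700 to 1000, 1000 to 1500 and at least 1500 UMIs the heat shock ratio in T cells was 0.588, 0.664, 0.689 and 0.7999, and the immediate early ratio 0.860, 0.886, 0.798 and 0.720. In 4 bins of mitochondrial content the heat shock ratio ran from 0.627 to 0.757 and the immediate early ratio from 0.722 to 0.862. In ILCs of at least 1500 UMIs the heat shock ratio was 0.980 (0.903 to 1.06), with 89 WT and 102 A20ZF7 cells.

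Barcodes of 51 to 150 UMIs, which can hold free RNA or broken cells, held these genes as well. There were 16217 in WT and 18055 in A20ZF7, with 39.5% and 23.2% mitochondrial UMIs, so these values are CPM over UMIs outside mitochondrial genes. Heat shock genes were at 5300.0 in them and 7506 in T cells of WT, and at 4138 and 5256 in A20ZF7. Immediate early genes were at 12168 and 18096 in WT and 11302 and 14301 in A20ZF7. Hspa1a stood at 344 in low-UMI barcodes of WT and 190.1 in those of A20ZF7, and Dnajb1 at 190.0 and 91.6, both lower in A20ZF7 as in T cells. Hspb1 was at 224 in WT low-UMI barcodes and 18.8 in WT T cells. Taking off an estimated free RNA share, 7.06% of UMIs in WT and 12.4% in A20ZF7 T cells, left ratios of 0.706 for heat shock and 0.794 for immediate early genes. In ILCs the estimated shares were 11% in WT and 27.4% in A20ZF7, and the ratios 0.812 and 0.786. Cells without a class had heat shock levels of 5953 CPM in WT and 4530.3 CPM in A20ZF7 and immediate early levels of 16284 and 12823 CPM.

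Surface CD69, counted with an antibody, was read here in the WT cells alone. The median was 13 antibody UMIs in T cells, ILCs and fibroblasts alike, 12 in epithelium and 17 in endothelium, and isotype controls had medians of 5, 4 and 2 in T cells. CD69 made up 0.792% of antibody UMIs in T cells, 0.741% in fibroblasts and 0.727% in epithelium, while Cd69 mRNA was at 549 CPM in T cells and 83.1 CPM in fibroblasts. The antibody counts thus did not separate the classes as the mRNA did.

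Other genes of the same pathways were taken from lists, and their counts in T cells stand against 7.22% of all genes at least 2-fold higher and 2.33% at least 2-fold lower. Of 33 further cytosolic chaperones and HSF1 targets measured in T cells, 1 was at least 2-fold higher (Fkbp5, which binds steroid receptor complexes), 1 at least 2-fold lower (Dnajb4), and the median ratio was 1.02, against 1.05 over all genes. The ubiquitin gene Ubb, which stress induces, was nonetheless at 2159 CPM in WT and 1149.6 CPM in A20ZF7, a ratio of 0.533 (0.514 to 0.552), and the HSP70 cochaperone gene Dnajb6 had a ratio of 0.898. Of 20 endoplasmic reticulum chaperones and unfolded protein response genes, 0 passed 2-fold and the median was 1.16, with Ern1, the stress sensor IRE1, at 1.71, Hspa5, the chaperone BiP, at 1.11 and Hsp90b1 at 1.34. A further list held 45 measured immediate early genes and genes known to move with dissociation. Of these, 1 was at least 2-fold higher (Id1) and 1 lower (Egr2, on 24 WT and 37 A20ZF7 UMIs). Their median was 1.01. Id1, on 4 WT and 32 A20ZF7 UMIs, passed the minimum of 20 UMIs through A20ZF7 alone, and the interval of its ratio of 2.11 (0.748 to 8.21) held 1. Among the 45 genes Tnfaip3, the gene of A20 itself, was at 1502 and 1414 CPM (0.942), and Nfkbia and Bhlhe40 had ratios of 1.33 and 1.26. Of 28 genes of antigen receptor activation, 8 were at least 2-fold higher (Tnfrsf4, Tnfrsf9, Ctla4, Pdcd1, Irf4, Batf, Havcr2 and Lag3) and 5 at least 2-fold lower (Xcl1, Ccl3, Ccl4, Tnf and Il2), with a median of 1.32. Havcr2, on 18 WT and 382 A20ZF7 UMIs, passed the minimum of 20 UMIs through A20ZF7 alone, so nothing is read from that call. The chemokine gene Ccl4 was at 1069.8 and 412 CPM, the inhibitory receptor gene Ctla4 at 495 and 1015 CPM and Nfkb1 at 429 and 806 CPM. Of 15 housekeeping genes, 0 passed 2-fold, and their median was 1.07, with Actb at 1.18, Tpt1 at 0.906 and Eef1a1 at 0.910. Differences under 2-fold went both ways. The interval lay below 1 for 11 of the 33 chaperones and HSF1 targets (above for 5). It lay below 1 for 18 of the 45 immediate early and dissociation genes (above for 16). It lay below 1 for 2 of the 20 endoplasmic reticulum genes (above for 11) and 9 of the 28 activation genes (above for 15). Over all genes these shares were 12.9% below and 17.3% above, not matched for UMIs. The antigen receptor list was not raised in T cells alone. In fibroblasts, with all WT cells pooled, 18 of 27 were at least 2-fold higher (7.9% of all genes) and 1 lower (3.72%), with a median of 2.23. In ILCs 8 of 28 were higher (5.11%) and 4 lower (4.11%), with a median of 1.21. T cell markers summed to 297 CPM in WT and 1011 CPM in A20ZF7 fibroblasts, and to 960 and 1741 CPM in ILCs. The part of T cell RNA in these counts was not tested.

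Levels across the 26 combinations of class and library also show which genes ran with the sums, on log2(CPM + 10). Nearest to the heat shock sum were Map3k8, a kinase of NF-kB and ERK signalling (r = 0.923), Nxf1 (0.894), Ddx5 (0.892), Tbc1d1 (0.877) and Tra2b (0.873). Nearest to the immediate early sum were Ccnl1 (0.905), Map3k8 (0.894), Nfkbiz (0.884), Tbc1d1 (0.871) and Rlim (0.853). Of the members themselves, Dusp1 ran closest with the other immediate early genes (0.954) and Egr1 stood at 0.277. Hspb1 had a correlation of -0.318 with the other heat shock genes, being highest in WT endothelium and lowest in A20ZF7 Tregs.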

How the data were processed

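Cells of 2 WT and 2 A20ZF7 mice formed 1 gene expression and 1 antibody library per genotype. The deposited counts were made by the authors with Cell Ranger (7.1 in the submitters' notes, 8.0.0 in the matrix headers) against mm10 as unfiltered whole-number UMI counts per gene and barcode, with no normalization. Barcodes with at least 500 UMIs and 200 to 2500 genes and at most 15% mitochondrial UMIs were kept, and WT barcodes with both hashtags (called with Seurat 5.3.0 at a quantile of 0.99) were removed. The deposited antibody matrix of A20ZF7 held the same values as that of WT and was not used, so doublets between its mice were not removed by hashtag. Doublets were otherwise kept, and removal of Scrublet scores above 0.25 (scanpy 1.11.5) was 1 of 15 alternatives. Marker gates named the classes, and their thresholds were set after marker counts were seen. UMIs were summed per class and library and divided by the summed UMIs of the shared gene IDs (CPM) with Python 3.11.15 and scipy 1.17.1. Ratios are given for genes with at least 20 UMIs in the genotype with the higher level. Where the summed UMIs of a class differed between genotypes, this minimum fell at unlike CPM for higher and lower genes, which shapes the background shares. Coverage of the intervals was tested only on counts simulated from the Poisson model that they assume, which cannot show their coverage in these data. The members and lists were chosen with earlier results of these data known. All 36 members are named, with the 3 genes of each list highest in T cells (1 of them is not reported here), the list genes past 2-fold, and the 5 genes most correlated with each sum.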

Additional observations from a re-analysis of the deposited data

Results flagged for a closer look

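The heat shock sum was lower in A20ZF7 than in WT in T cells (ratio 0.702) and higher in fibroblasts (1.07), and the immediate early sum likewise (0.792 and 1.24), so the pooled ratios in these cell types had opposite directions. The difference between cell types was not tested, since each genotype was 1 library. Against WT fibroblasts with a hashtag call alone, the fibroblast ratios were 0.968 and 1.05, so the opposite direction of the heat shock sum rests on WT fibroblasts without a call. For the immediate early sum in fibroblasts, A20ZF7 at 9015 CPM lay between WT mouse 1 at 8250.4 CPM and WT mouse 2 at 9272.5 CPM, and in cells with under 2% mitochondrial UMIs the ratio was 0.918 (0.890 to 0.947).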

How the results depend on the processing

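Of 15 alternatives, 3 added after seeing the data, 0 turned the direction of the 4 summed ratios in T cells and ILCs. For T cells the heat shock ratio was 0.717 with order-of-magnitude cell thresholds (776 UMIs in WT and 560 UMIs in A20ZF7), 0.75 from 1000 UMIs up, 0.688 over all listed gene IDs, 0.656 when thinned and 0.723 with a stricter gate. The immediate early ratio in T cells was 0.754 from 1000 UMIs up, 0.776 over all listed IDs, 0.779 without mitochondrial, ribosomal protein and immunoglobulin genes, 0.821 when thinned, 0.826 with the stricter gate and 0.781 with subsets weighted as in WT. For ILCs the heat shock ratio was 0.81 with order-of-magnitude thresholds, 0.862 from 1000 UMIs up, 0.819 at a mitochondrial limit of 5%, 0.812 with free RNA taken off, 0.749 when thinned and 0.811 with the stricter gate. The immediate early ratio in ILCs was 0.791 with order-of-magnitude thresholds, 0.72 from 1000 UMIs up, 0.721 over all listed IDs, 0.786 with free RNA taken off, 0.71 with subsets weighted, 0.773 with hashtag-called WT cells alone and 0.72 without WT mouse 1. The causes were not tested. In fibroblasts, hashtag-called WT cells alone turned the heat shock ratio to 0.968 and gave 1.05 for immediate early genes. Without Hspb1, also added, the heat shock ratio was 0.838 in endothelium and 0.992 in smooth muscle. Against hashtag-called WT cells alone, the full heat shock ratio in smooth muscle was 0.878. Between 4 and 6 members were at least 2-fold lower in T cells, Hspa1a, Hspa1b and Dnajb1 under every alternative, and Ier3, the 1 member at least 2-fold higher, gave 0 when thinned and 0 without WT mouse 2. No paired analysis was possible because each genotype was 1 library of pooled mice with no number shared between genotypes. Intervals cover counting error only, and with 1 library per genotype neither animals nor handling can be told apart from genotype.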
